A study of Arabidopsis thaliana with 4 samples.

Results

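The bZIP transcription factors of Arabidopsis thaliana were followed here through 13 microarray probes out of 26474 gene probes. A probe was taken if its platform annotation lists a gene symbol that starts with BZIP and a number, or the locus AT1G35490, and if its ratio was measured on at least 3 of the 4 arrays. Of 15 such probes 13 were measured, all of them on all 4 arrays. Of the 13 probes 6 list 1 gene each, and 7 list several genes, so that a ratio on those 7 cannot be given to any 1 gene. Together the 13 probes list 13 genes with a BZIP symbol, and AT1G35490 in addition, 14 of the 13863 genes that tested probes list. AT1G35490, to which the gene table used here gives no symbol, was chosen by its large ratios in these data, whereas the BZIP-named genes were taken by their symbols.

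Each of the 4 Operon arrays, called sets 1 to 4, compared total RNA of apetala2 mutant inflorescences with that of wild-type inflorescences, each in a channel of its own. Inflorescences are the shoot tips that bear flower buds and open flowers. APETALA2 is a transcription factor of sepal and petal identity. By the labels, channel 1 held the apetala2 RNA on sets 1 and 3 and channel 2 held it on sets 2 and 4. They give neither the allele, the strain, the age of the plants nor the dyes. Whether each set had its own plants is not stated, so the p-values reflect only how far these arrays differ from each other, which may be technical.

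bZIP proteins bind DNA through a basic region and pair with each other through an adjoining leucine zipper, as homodimers or heterodimers. In plants the family includes regulators of the unfolded protein response, of zinc supply, of salt and low-energy responses, of seed maturation and of pollen development. Because partners combine in many ways, the transcript level of a single member does not give the activity of a dimer.

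The values are log2 ratios of the channels, and no source used here says which channel is the numerator. For the labelled orientation the signs of sets 2 and 4 were turned, so that a positive mean is apetala2 over wild type provided that channel 1 was divided by channel 2, and wild type over apetala2 otherwise. Across measured gene probes, however, the correlation was r = -0.227 between sets 1 and 3, which share the labelled channel, and r = -0.119 between sets 2 and 4, which also share theirs. It was r = 0.313 between sets 1 and 4, and r = 0.307 between sets 2 and 3. Within each pair of exchanged channels it was negative, as an exchange gives, at r = -0.479 between sets 1 and 2 and r = -0.474 between sets 3 and 4. Whether such a pair shares its RNA extracts is not stated in the labels. Means are therefore also given with sets 2 and 3 turned, where a negative mean has the sign of sets 1 and 4. No bZIP gene is called higher or lower in apetala2 than in wild type, because the direction is unsettled. No probe lists AP2, so the mutant label could not be checked at its own transcript, and ratios give no level by which the tissue label could be checked.

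AT1G35490 had the largest ratios of the bZIP probes. Its deposited log2 ratios were -2.73, 1.52, 2.89 and -2.95 on sets 1 to 4. Sets 1 and 4 were thus low and sets 2 and 3 high, with no overlap. Among the measured ratios of each array, these values stood at percentile 0.349, 97.7, 99.2 and 0.357 on sets 1 to 4. With sets 2 and 3 turned the mean was -2.52 ± 0.673 (SD, n = 4), a 5.74-fold difference and place 40 from the lowest among 25777 tested probes. The mean in the labelled orientation was 0.40 ± 2.95 (SD, n = 4), because sets 1 and 2 and sets 3 and 4 then pointed opposite ways. These values chose the gene and are given as a description, with no test.

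**Figure D1:**
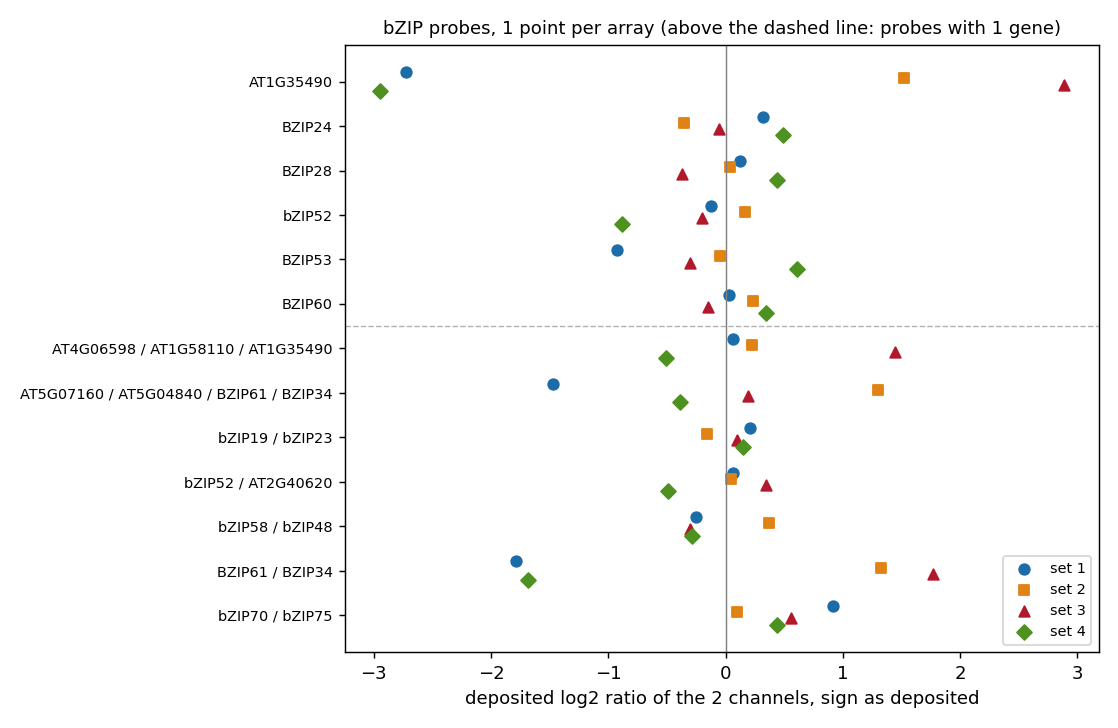
Deposited log2 ratio (x axis, sign as deposited) of each of the 13 bZIP probes (rows), with 1 point per array. AT1G35490 and the probe of BZIP61 and BZIP34 have sets 1 and 4 far to the left and sets 2 and 3 far to the right, whereas most other probes lie near 0 on all 4 arrays.

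A second probe that lists AT1G35490, together with AT4G06598 and AT1G58110, gave smaller ratios. It had 0.06, 0.22, 1.44 and -0.51 on sets 1 to 4. Only set 3 was far from 0, and sets 1 and 2 lay close to each other. With sets 2 and 3 turned its mean was -0.53 ± 0.26 (SE, n = 4, limma adjusted p = 0.462), and in the labelled orientation 0.45 ± 0.29 (SE, n = 4, limma adjusted p = 0.790). The gene's own probe lay below it on every array when sets 2 and 3 were turned, with differences of -2.79, -1.30, -1.45 and -2.44 on sets 1 to 4. One more probe with the same 3 genes was at the scale's upper limit for sets 1 and 2 and had 0.72 on set 3 and 0.20 on set 4, so it was left out with 2 measured ratios. The ratios of AT1G35490 thus rest on 1 probe.

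The genes whose ratios were most like those of AT1G35490 were sought among 5192 other genes with a probe of their own that was measured on all 4 arrays. Likeness was the Euclidean distance over the 4 deposited log2 ratios, where 0 means equal on every array. The nearest were AT1G13970 at a distance of 0.288, AT5G62750 at 0.416, AT3G32896 at 0.504, AT1G15415 at 0.524 and AT1G13670 at 0.533. AT1G13970 had -2.68, 1.29, 2.96 and -3.10 on sets 1 to 4. These 5 genes have no symbol in the gene table used here, and with 4 arrays the measure describes the arrays only.

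Among the other bZIP probes the one nearest to AT1G35490 was that of BZIP61 and BZIP34, at a distance of 1.94, with 1.25% of all probes nearer. The next were the longer list with BZIP61 and BZIP34 at 3.93 (4.91% of all probes nearer) and the second AT1G35490 probe at 4.19 (6.65%). The remaining bZIP probes lay between 4.73 and 5.77 from it.

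**Figure D2:**
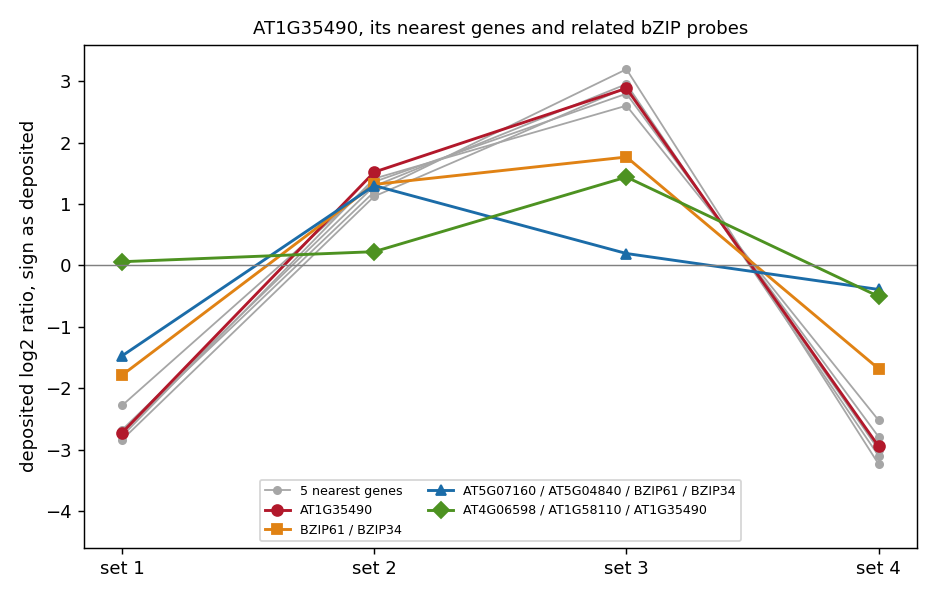
Deposited log2 ratio (y axis) on each set (x axis, 1 point per array; lines only join the points of a probe) for AT1G35490, the 5 genes nearest to it, and the 3 related bZIP probes that list several genes. The probe of BZIP61 and BZIP34 has the same sign on each array with smaller ratios, while the other 2 related probes are far from 0 on only some arrays.

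BZIP34 and BZIP61 are close relatives, and BZIP34 is known for roles in pollen wall formation and in the male gametophyte. Their shared probe had log2 ratios of -1.79, 1.32, 1.77 and -1.68 on sets 1 to 4. As for AT1G35490, sets 1 and 4 were low and sets 2 and 3 high, with no overlap. The percentiles among all measured ratios were 2.59, 96.7, 97.7 and 2.30 on sets 1 to 4.

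This probe passed the test when sets 2 and 3 were turned, with a mean of -1.64 ± 0.13 (SE, n = 4, limma adjusted p = 0.00814, 95% interval -1.97 to -1.31), a 3.12-fold difference with the same sign on 4 of 4 arrays. It was the only one of the 12 bZIP probes other than that of AT1G35490 to do so. An unadjusted limma p under 0.05 was found for 2 of the 12, against 13.1% of all tested probes. Of all 25777 tested probes, 2.05% passed in this orientation, 1.82% with a negative mean and 0.225% with a positive mean. A count of 1 among 12 is too small to be read against that share. The same probe had a labelled-orientation mean of 0.09 ± 0.72 (SE, n = 4, limma adjusted p = 0.988). The orientation with sets 2 and 3 turned was chosen with the correlations between these arrays known, and probes of this pattern add to them. P-values and intervals in it are therefore not independent of that choice.

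The call of the BZIP61 and BZIP34 probe rests on counting 4 separate arrays and on moderated spreads. Its limma adjusted p was 0.186 when each pair of sets, 1 with 2 and 3 with 4, was averaged first, and without moderation its adjusted p was 0.174. Leaving out set 1, 2, 3 or 4 gave limma adjusted p of 0.0498, 0.0108, 0.0496 and 0.0476 over probes measured on all 3 other arrays, and 0.0621, 0.0137, 0.0608 and 0.0585 when probes with 2 of the 3 were also tested.

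A further probe lists BZIP61 and BZIP34 together with AT5G07160 and AT5G04840. Its log2 ratios were -1.47 on set 1 and 1.30 on set 2, but only 0.19 on set 3 and -0.39 on set 4. The first pair of arrays was therefore far from 0 and the second pair close to it, although the order of the signs was that of the other BZIP61 and BZIP34 probe. Its mean with sets 2 and 3 turned was -0.84 ± 0.25 (SE, n = 4, limma adjusted p = 0.235), and in the labelled orientation -0.55 ± 0.38 (SE, n = 4, limma adjusted p = 0.796). It lay above the probe of BZIP61 and BZIP34 alone by 0.80 ± 0.75 on average with sets 2 and 3 turned (SD, n = 4), with differences of 0.31, 0.02, 1.57 and 1.29 on sets 1 to 4. How much of each ratio comes from which listed gene was not tested.

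**Figure D3:**
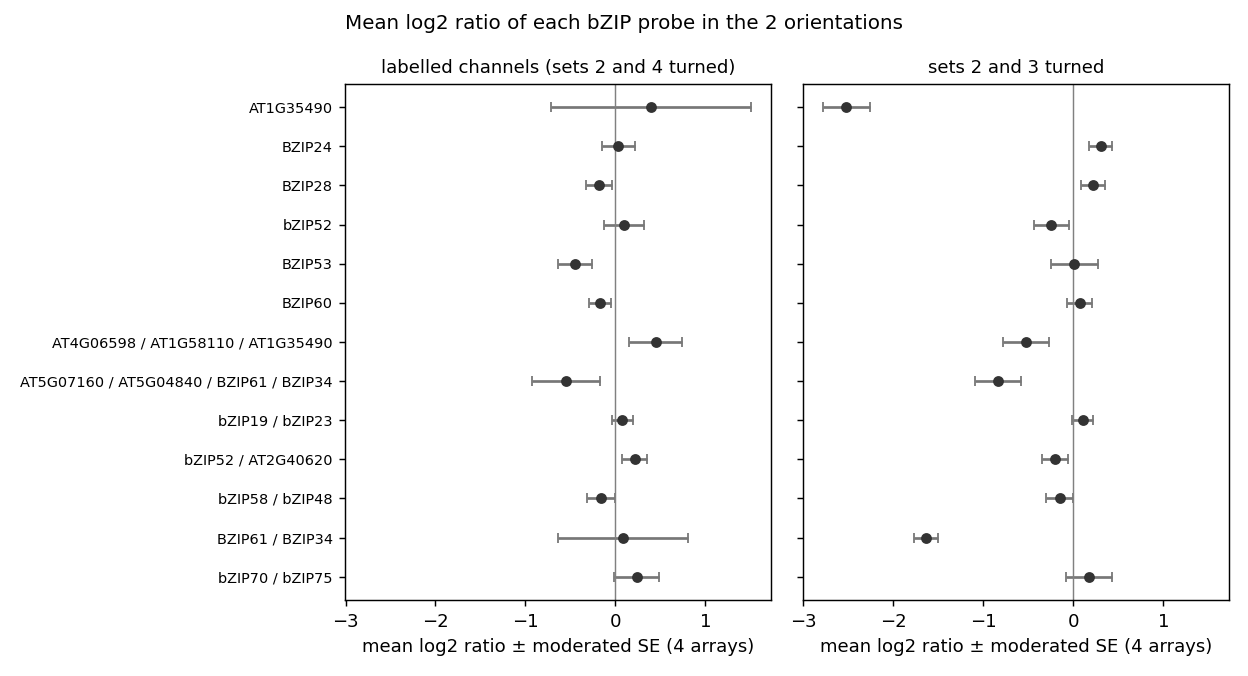
Mean log2 ratio over 4 arrays (x axis) with its moderated standard error for each bZIP probe (rows), with the labelled channels on the left and with sets 2 and 3 turned on the right. AT1G35490 at -2.52 and the BZIP61 and BZIP34 probe at -1.64 stand apart only on the right, and have wide errors on the left.

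BZIP60 and BZIP28 are the membrane-anchored factors of the unfolded protein response, BZIP60 being activated by splicing of its mRNA and BZIP28 by cleavage in the Golgi. The probe of BZIP60 had log2 ratios of 0.03, 0.23, -0.15 and 0.34 on sets 1 to 4. That of BZIP28 had 0.13, 0.04, -0.37 and 0.44. In both, set 4 was the highest and set 3 the lowest, and all ratios stayed within 0.5 of 0. BZIP60 with sets 2 and 3 turned averaged 0.07 (95% interval -0.27 to 0.41) and BZIP28 0.22 (-0.11 to 0.55). By the labelled channels BZIP60 averaged -0.17 (-0.48 to 0.13) and BZIP28 -0.18 (-0.55 to 0.19). Neither gene passed in either orientation, with limma adjusted p of 0.544 or above. A probe-level ratio of BZIP60 sums the spliced and unspliced mRNA unless the probe lies on the spliced part, which was not examined.

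BZIP24 is a regulator of salt responses and belongs to the same group as bZIP19 and bZIP23, the sensors that switch on zinc uptake genes in zinc deficiency. The probe of BZIP24 had 0.32, -0.36, -0.06 and 0.49 on sets 1 to 4. Sets 1 and 4 were thus high and sets 2 and 3 low, the opposite order to AT1G35490, with far smaller ratios. Its mean with sets 2 and 3 turned was 0.31 ± 0.13 (SE, n = 4, limma adjusted p = 0.389, 95% interval -0.01 to 0.62), with 1 sign on all 4 arrays, and in the labelled orientation 0.03 ± 0.18 (SE, n = 4, limma adjusted p = 0.979).

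The probe shared by bZIP19 and bZIP23 had ratios of 0.21, -0.16, 0.09 and 0.15 on sets 1 to 4, the narrowest range of the bZIP probes. Its means were 0.10 ± 0.12 with sets 2 and 3 turned and 0.08 ± 0.12 in the labelled orientation (SE, n = 4), with limma adjusted p of 0.753 and 0.915. The 95% interval with sets 2 and 3 turned ran from -0.19 to 0.40. A probe that lists BZIP24 as well as bZIP19 and bZIP23 was at the scale's upper limit for sets 1, 3 and 4 and had 3.94 on set 2, and was left out with 1 measured ratio. Empty spots were often at that limit too, 62.8% to 87.0% of them per array.

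BZIP53 is an activator of seed maturation genes and of amino acid metabolism under low energy, and pairs with other groups of the family. Its log2 ratios were -0.92, -0.05, -0.30 and 0.61 on sets 1 to 4. Sets 1 and 4 were the lowest and the highest, so the gene showed the widest spread of the BZIP genes with a probe of their own. Its mean with sets 2 and 3 turned was 0.01 ± 0.26 (SE, n = 4, limma adjusted p = 0.990). By the labelled channels it was -0.45 ± 0.19 (SE, n = 4, limma adjusted p = 0.760, 95% interval -0.92 to 0.03), the mean farthest from 0 among the 5 BZIP-named genes with a probe of their own.

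bZIP52 is close to bZIP18, another name of AT2G40620. The symbol of AT2G40620 here is its locus, so it is not counted among the BZIP-named genes. The probe of bZIP52 had ratios of -0.13, 0.17, -0.20 and -0.89 on sets 1 to 4, so set 4 lay apart from the rest. Its means were -0.25 ± 0.20 with sets 2 and 3 turned and 0.10 ± 0.22 in the labelled orientation (SE, n = 4), with limma adjusted p of 0.652 and 0.9496. A probe that lists bZIP52 beside AT2G40620 (bZIP18) had 0.07, 0.04, 0.35 and -0.49 on sets 1 to 4. The 2 probes shared a negative set 4 and had opposite signs on sets 1 and 3. Their means with sets 2 and 3 turned were close, at -0.25 and -0.20, and differed by -0.04 ± 0.41 (SD, n = 4).

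The probe of bZIP58 and bZIP48 had -0.25, 0.37, -0.30 and -0.29 on sets 1 to 4, with set 2 alone above 0. That of bZIP70 and bZIP75 had 0.92, 0.10, 0.56 and 0.44. Of the 13 measured bZIP probes it alone had a positive ratio on all 4 arrays as deposited. The mean of its unturned ratios accounted for 74.7% of the sum of its squared ratios, so most of its signal kept 1 sign while the labelled channels were exchanged. Means of the bZIP70 and bZIP75 probe were 0.18 ± 0.25 with sets 2 and 3 turned and 0.24 ± 0.25 in the labelled orientation (SE, n = 4), and those of the bZIP58 and bZIP48 probe -0.15 ± 0.15 and -0.16 ± 0.16. Neither passed in either orientation, with limma adjusted p of 0.719 or above.

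The 4 ratios of a probe can be divided exactly over 4 contrasts of the arrays, and the bZIP probes differed in which one led. Sets 1 and 4 against sets 2 and 3 led in 7 of the 13 probes, and in 37.7% of all probes measured on 4 arrays. AT1G35490 is among the 7 and was chosen by its ratios, so the count is not read against that share. This contrast held 98.7% of the squares for the BZIP61 and BZIP34 probe, 94.9% for AT1G35490 and 79.2% for BZIP24. It held 50.3% of the squares pooled over all probes, where large ratios weigh most, which need not be a typical probe's share. The labelled contrast led in 3 bZIP probes, and in 29.3% of all probes. Those 3 were BZIP60 at 62.6%, BZIP53 at 60.6% and the bZIP52 and AT2G40620 probe at 50.5%. Sets 1 and 2 against sets 3 and 4 led for the bZIP52 and the bZIP58 and bZIP48 probes.

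**Figure D4:**
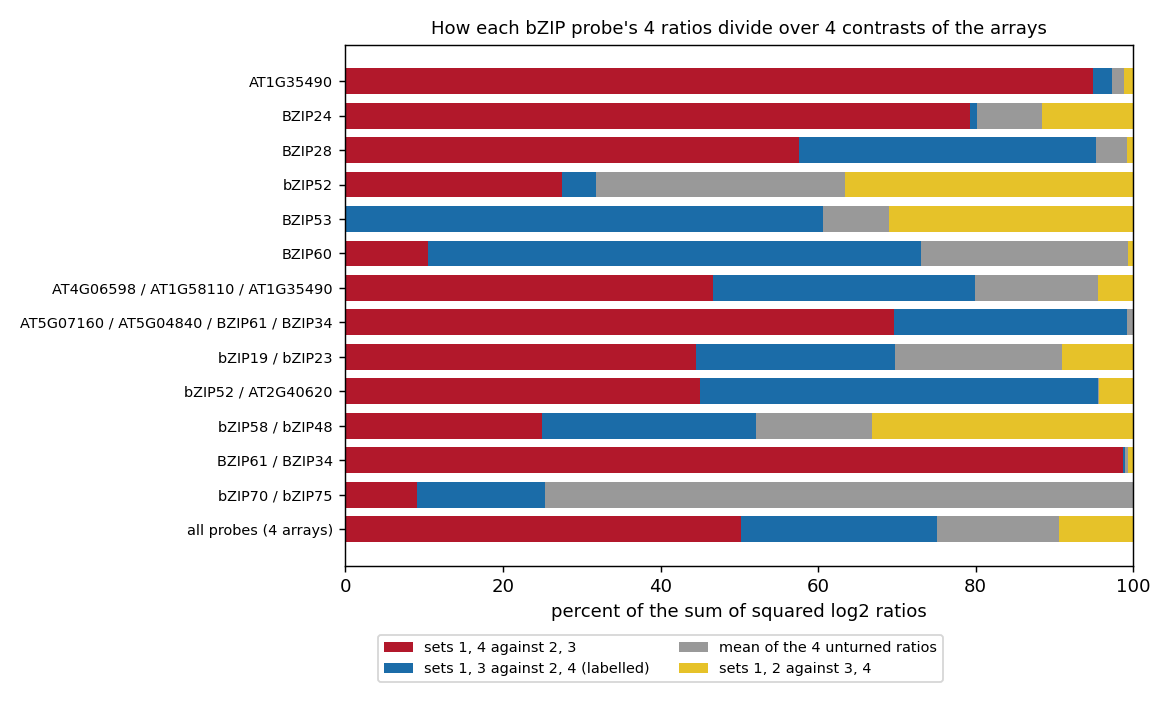
Percent of the sum of squared log2 ratios (x axis) that falls in each of 4 contrasts of the arrays, for each bZIP probe and pooled over all probes measured on 4 arrays (bottom row). The BZIP61 and BZIP34 probe and AT1G35490 lie almost wholly in sets 1 and 4 against sets 2 and 3, at 98.7% and 94.9%, and the bZIP70 and bZIP75 probe mostly in the mean of the unturned ratios.

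By the labelled channels 0 of the 12 bZIP probes passed in limma, as did 0% of all probes. None of the 12 had an unadjusted p under 0.05, against 6.55% of all probes, and a test without moderation also passed 0. Means within 0.5 of 0 were found for 11 of the 12 in this orientation, against 90.6% of all probes, and for 9 of the 12 with sets 2 and 3 turned, against 86.5%. The same sign on all 4 arrays was found for 0 of the 12 in the labelled orientation, against 16.3% of all probes. It was found with sets 2 and 3 turned for 3 of the 12, against 23.0%. These were BZIP24 and both probes with BZIP61 and BZIP34. The median over these 12 bZIP probes was -0.07 with sets 2 and 3 turned and 0.06 in the labelled orientation (-0.15 and 0.08 over all 13, with AT1G35490), beside medians of 0.03 and 0.02 over all tested probes. The 5 BZIP-named genes with a probe of their own gave no call in either orientation. Of all probes 2.05% passed with sets 2 and 3 turned, so 0 calls among 5 cannot be read against that share. The means of these 5 genes ran from -0.25 to 0.31 with sets 2 and 3 turned and from -0.45 to 0.10 in the labelled orientation.

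**Figure D5:**
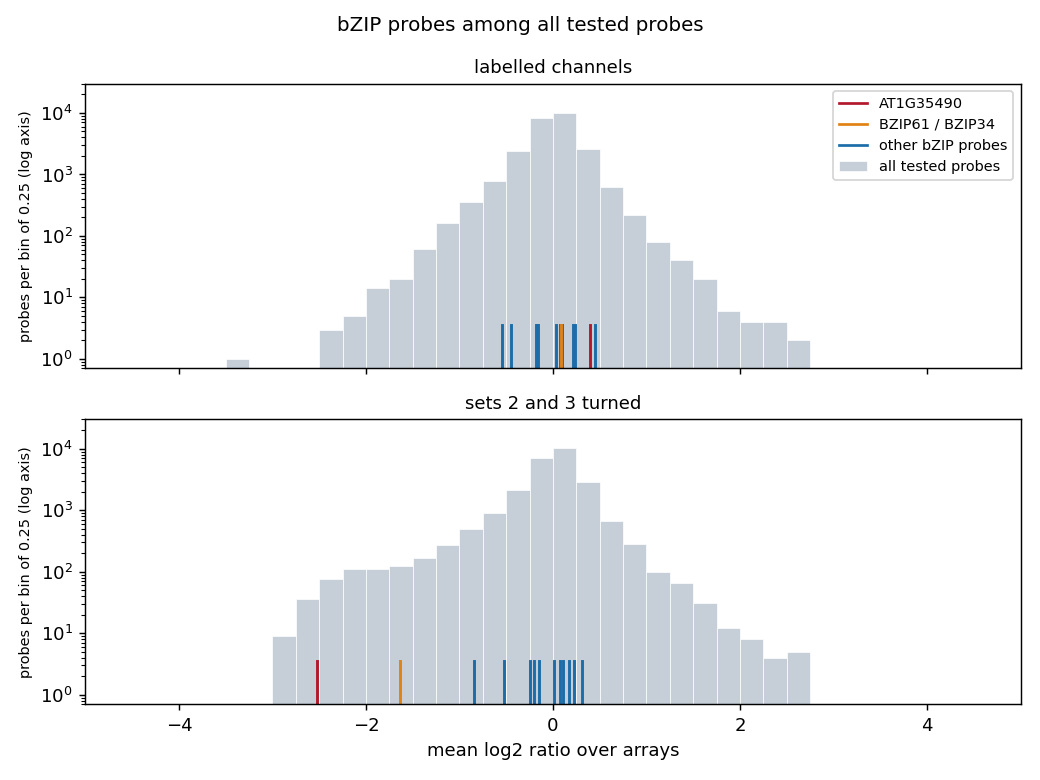
Number of tested probes per bin of the mean log2 ratio (grey bars, log axis) in each orientation, with each bZIP probe as a vertical line of arbitrary height. With the labelled channels all bZIP probes lie between -0.55 and 0.45, and with sets 2 and 3 turned AT1G35490 and the BZIP61 and BZIP34 probe lie in the negative tail.

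Other bZIP genes and their partners were hardly represented. Of 49 further bZIP genes sought by other names, such as HY5, ABI5 and the TGA factors, some of which are the same genes as those above, none had an additional probe of its own. A probe that lists POSF21 beside AT1G06070 and AT2G40620 had means of -0.01 ± 0.14 with sets 2 and 3 turned and -0.16 ± 0.12 in the labelled orientation (SE, n = 4). Of 24 partner and target genes, ROXY1 and ROXY2, the glutaredoxins that work with TGA factors in petals and anthers, shared 2 probes. Those had means of -0.38 ± 0.25 and 0.10 ± 0.22 with sets 2 and 3 turned, and -0.38 ± 0.26 and -0.43 ± 0.14 in the labelled orientation (SE, n = 4). None of these 3 probes passed in either orientation.

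Probes that list pollen genes were examined beside these, from a list of 31 genes. Of 12 tested probes that list a mature pollen gene among several, 8 passed with a negative mean when sets 2 and 3 were turned, against 1.82% of all probes, and none with a positive mean. The other 4 did not pass, and 1 of the 12, which lists AGL66, AGL67 and AGL104, had a positive mean of 0.36 ± 0.33 (SE, n = 4). The median of the 12 was -2.004 with sets 2 and 3 turned and 0.11 in the labelled orientation, where none passed. Several of the 8 list the same genes, such as the pectin methylesterases PPME1 and VGD1, and earlier results of these data were known when the list was written. TUA1, a pollen alpha-tubulin and the only listed pollen gene measured by a 1-gene probe, gave -0.53 ± 0.12 with sets 2 and 3 turned and -0.07 ± 0.26 in the labelled orientation (SE, n = 4), and passed in neither (limma adjusted p = 0.121 and 0.971).

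Of 7 anther and tapetum probes with 1 gene none passed in either orientation, with medians of -0.59 with sets 2 and 3 turned and -0.36 in the labelled orientation. The probes of ATA27 had opposite signs. ATA27 had -1.27 ± 0.47 on 1 probe and 0.24 ± 0.15 on its other probe with sets 2 and 3 turned, and -1.07 ± 0.57 and 0.07 ± 0.18 in the labelled orientation (SE, n = 4). ATA20 had -1.06 ± 0.44 and -0.59 ± 0.31 on its probes with sets 2 and 3 turned, and -0.95 ± 0.51 and -0.66 ± 0.30 in the labelled orientation (SE, n = 4). SWEET8, a sugar transporter of pollen wall formation, had -0.87 ± 0.25 with sets 2 and 3 turned and -0.36 ± 0.43 in the labelled orientation (SE, n = 4). EMS1, a receptor kinase of tapetum fate, had 0.65 ± 0.20 and 0.28 ± 0.33 (SE, n = 4) in the same order. Of 2 probes that list SWEET8 among several genes, that with AtVEX1 and SWEET4 passed with sets 2 and 3 turned. Its mean was -2.07 ± 0.25 (SE, n = 4, limma adjusted p = 0.0194), and 1.82% of all probes passed with a negative mean. That with SWEET6 and SWEET7 had -0.21 ± 0.50 (SE, n = 4, limma adjusted p = 0.891). In the labelled orientation they had -0.49 ± 0.91 and -1.15 ± 0.17 (SE, n = 4), and neither passed. Neither ratio can be given to SWEET8 alone.

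Of 4 carpel and ovule probes with 1 gene, that of CES, a basic helix-loop-helix factor, passed with sets 2 and 3 turned at 2.12 ± 0.20 (SE, n = 4, limma adjusted p = 0.0116), as did 1 of 3 that list several genes, against 0.225% of all probes with a positive mean. By the labelled channels CES had 0.40 ± 0.92 (SE, n = 4, limma adjusted p = 0.949), and no carpel and ovule probe passed. The 3 probes of INO, a YABBY factor of the outer integument, had -0.66 ± 0.19, -0.08 ± 0.19 and -0.04 ± 0.13 with sets 2 and 3 turned, and 0.01 ± 0.34, -0.38 ± 0.11 and -0.03 ± 0.13 in the labelled orientation (SE, n = 4). Of 3 floral identity probes none passed in either orientation. SEU, a co-repressor, had 0.11 ± 0.13 with sets 2 and 3 turned and 0.03 ± 0.14 in the labelled orientation (SE, n = 4). In these whole inflorescences, a difference in the number of cells of a type and 1 in RNA per cell cannot be told apart. The part of pollen or anther content in the ratios of AT1G35490 and of BZIP61 and BZIP34 was not tested.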

How the data were processed

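Each array has a deposited log2 ratio of its channels per probe, which the authors normalized by an earlier published procedure, per the labels. Numerator, dyes, scanner, background correction and filters: not given in the sources used here. Signal brightness is therefore not known, and precision is limited by there being 4 arrays. Values stop at 6.64 on either side, the log2 of 100. A value within 1e-04 of the limit was treated as not measured, and 459 control spots were left out.

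All 25777 gene probes measured on at least 3 arrays were fitted at once with an intercept in limma 3.58.1 (R 4.3.3; lmFit, eBayes), two-sided against 0, with Benjamini-Hochberg adjustment over all of them. Calls are at an adjusted p under 0.05. The fit was tested on simulated data. Errors there were drawn independently for each array, so sets that share RNA were not covered. An exact sign-flip test on 4 arrays cannot go below p = 0.125 and was not used.

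Probes were named from the platform annotation, with loci and symbols from the TAIR10.1 gene table. Of 26474 gene probes 5784 have 1 gene, 7497 several, and 13193 are unnamed here. Coordinates are left out, since no source used here names the genome build of the probes, and member sequences were not analysed here.

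The members, the second orientation and the gene lists (other bZIP genes, partners and targets, mature pollen, anther and tapetum, floral identity, carpel and ovule) were chosen with earlier results of these data known. The genes named were AT1G35490, every bZIP gene with a probe of its own, the bZIP probes with several genes (up to 6 by the size of the mean, and the remaining 1 so that every member is accounted for), the 5 genes nearest to AT1G35490, and up to 4 per list. Alternatives were limit values kept, other filters on measured arrays, centring, scaling, a channel term, averaged pairs of sets, no moderation and each array left out.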

Additional observations from a re-analysis of the deposited data

Results flagged for a closer look

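By Dixon's ratio for 4 values at its 95% critical value, 1 array lay far from its fellows in 2 of 28 cases looked at. Chance gives about 1 in 20 for independent cases. The count is not read against that rate, because the same ratios were looked at in both orientations. For AT1G35490 the far array was set 2, at -1.52 when sets 2 and 3 are turned, while sets 1, 3 and 4 ran from -2.95 to -2.73. These are the ratios that chose this gene, so the gap is a description only. For bZIP52 it was set 4, at 0.887 by the labelled channels, while sets 1 to 3 ran from -0.203 to -0.128. Neither case was found in the other orientation of the same probe.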

How the results depend on the processing

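With sets 2 and 3 turned, 528 of all probes passed. The count was 158 with limit values kept, 273 with the channel term, and 0 both with each pair of sets averaged (1923 at an unadjusted p under 0.05) and without moderation (2941). It ranged from 94 to 441 with an array left out, and from 0 to 405 when probes measured on at least 2 of the other arrays were kept, a filter chosen after seeing the data. It was 0 there without set 1, 3 or 4 (2837, 2844 and 3054 at an unadjusted p under 0.05). The count of bZIP probes, 1 in the fit as reported, was 0 with averaged sets and without moderation, and ranged from 0 to 1 over the arrays left out. The mean of the BZIP61 and BZIP34 probe stayed between -1.75 and -1.59 over 16 settings, and its limma adjusted p between 0.00542 and 0.186, under 0.05 in 11 of them. The mean of AT1G35490 stayed between -2.85 and -2.38 with sets 2 and 3 turned, and between -0.45 and 1.44 in the labelled orientation, where it changed sign without set 3 or 4. In the labelled orientation no probe passed under any of these settings, and the median of the bZIP probes, 0.08, ranged from -0.119 to 0.0521 with an array left out and was -0.11 without set 3 and -0.12 without set 4. With sets 2 and 3 turned that median, -0.15 over all 13 probes, ranged from -0.16 to -0.08 with an array left out, and was -0.08 without set 2. The cause of these changes was not tested. A pairing between groups did not apply, because the arrays form 1 group, and the pairs of sets were covered only by the averaged fit above. The pairing of the genotypes lies in each array's ratio.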
